A study of Mus musculus with 30 samples.

Results

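Nuclear RNA-seq counts of 7 genes of the cholesterol pathway were followed in mouse embryonic stem (ES) cells that lost SRCAP, the ATPase of the complex that places the histone variant H2A.Z on chromatin. The genes were Hmgcs1, Idi1, Fdft1, Sqle, Lss, Cyp51 and Insig1. They were taken by name from the 55401 genes of the 4 tables of counts, and all 7 were found and tested in every table. Of the 7, 6 encode enzymes of cholesterol synthesis and Insig1 encodes a regulator of the pathway. None of them is an uptake receptor, so genes of uptake are described from a separate list.

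The series held 30 libraries in 15 groups of 2 replicates. CGR8 is the parental ES cell line without a degron, left untreated (NT) or given 500 µM indole-3-acetic acid (IAA, an auxin) for 4 h. SYAT cells are 1 homozygous CGR8 clone in which both alleles of SRCAP carry YPet and an auxin-inducible degron, with lentiviral OsTir1 expressed from an EF1a promoter, so that IAA degrades SRCAP. SYAT controls (unt) were kept in auxinole, an inhibitor of OsTir1, and the time course sampled SYAT cells 2, 4, 6 and 8 h into 500 µM IAA. For the cell cycle samples, SYAT cells with an mCherry mitotic degron were sorted with low Hoechst signal as early G1 (EG1, mCherry low) or late G1 (LG1, mCherry high), without IAA or after 1 h of it. wtSRCAP and cdSRCAP are 1 clone each of SYAT cells with a doxycycline-inducible wild-type or catalytically dead SRCAP-mCherry, all induced for 24 h, sorted for mCherry and kept in auxinole (NT) or given IAA for 4 h. All cells were kept in serum and LIF for the experiments. Comparisons were made only within a table, because CGR8, the time course, the sorted cells and the wtSRCAP and cdSRCAP cells were counted in separate tables.

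Cholesterol is built from acetyl-CoA in a chain of enzymes. Hmgcs1 (HMG-CoA synthase) makes HMG-CoA near the start of the chain, Idi1 converts isopentenyl diphosphate to its isomer, Fdft1 (squalene synthase) makes squalene, Sqle (squalene epoxidase) oxidises it, Lss (lanosterol synthase) closes the rings and Cyp51 removes a methyl group from lanosterol. The pathway is controlled by SREBP transcription factors, which are released from membranes of the secretory pathway when sterols are low and bind sterol regulatory elements, often beside sites for NF-Y and Sp1. Insig1 is a target of SREBP that holds the SREBP escort protein SCAP in the endoplasmic reticulum when sterols are present, and so acts as feedback.

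In the mouse genome (GRCm38, GENCODE vM21) Hmgcs1 (ENSMUSG00000093930.2) spans chr13:119690379-119708260 on the plus strand and Idi1 (ENSMUSG00000058258.14) chr13:8885501-8892451 on the same strand. Fdft1 (ENSMUSG00000021273.11) lies at chr14:63145150-63179578 on the minus strand and Sqle (ENSMUSG00000022351.14) at chr15:59315077-59331192 on the plus strand. Lss (ENSMUSG00000033105.12) covers chr10:76531588-76557138 on the plus strand and Cyp51 (ENSMUSG00000001467.5) chr5:4081145-4104746 on the minus strand. Insig1 (ENSMUSG00000045294.11) is at chr5:28071363-28078662 on the plus strand. An annotated gene on the opposite strand overlaps 5 of them, namely Gm48342 for Hmgcs1, Gm48574 for Idi1, Ctsb for Fdft1, 4930483K19Rik for Lss and Akap9 for Cyp51. The strand setting of the counting is not given in the sources used here, so reads in those overlaps cannot be assigned. Sqle and Insig1 overlap no annotated gene.

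RefSeq promoter windows of GRCm38.p6, 300 bases long, were found for 5 of the 7 genes. Those of Hmgcs1, Cyp51, Lss and Insig1 are shown, because the last 3 were the members furthest below the control after IAA in CGR8 and Hmgcs1 was the only one with a full sterol regulatory element. Each is given as the 250 bases before the start site, 5′ to 3′ on the strand of the gene. Capitals mark matches to the sterol regulatory element, written as TCACNCCAC or in a looser form as TCACNNCA, and to the NF-Y motif CCAAT, which reads ATTGG on the other strand. They lie at chr13:119690101-119690350 for Hmgcs1, chr5:4104698-4104947 for Cyp51 (minus strand), chr10:76531355-76531604 for Lss and chr5:28071162-28071411 for Insig1.
Hmgcs1: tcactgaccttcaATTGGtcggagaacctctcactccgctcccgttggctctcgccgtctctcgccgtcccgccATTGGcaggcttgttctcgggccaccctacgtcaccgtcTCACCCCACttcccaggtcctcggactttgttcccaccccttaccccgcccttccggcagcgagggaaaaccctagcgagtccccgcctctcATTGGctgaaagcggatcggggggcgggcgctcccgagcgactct
Cyp51: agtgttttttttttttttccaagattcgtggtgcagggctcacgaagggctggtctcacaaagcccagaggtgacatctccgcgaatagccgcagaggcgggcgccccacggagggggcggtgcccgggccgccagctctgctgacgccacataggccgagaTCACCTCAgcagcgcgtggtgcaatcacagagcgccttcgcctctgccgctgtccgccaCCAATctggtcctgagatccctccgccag
Lss: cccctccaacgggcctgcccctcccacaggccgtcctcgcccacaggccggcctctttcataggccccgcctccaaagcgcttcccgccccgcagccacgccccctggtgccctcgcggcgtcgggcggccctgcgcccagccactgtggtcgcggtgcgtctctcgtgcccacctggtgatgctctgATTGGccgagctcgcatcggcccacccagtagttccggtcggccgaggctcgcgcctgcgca
Insig1: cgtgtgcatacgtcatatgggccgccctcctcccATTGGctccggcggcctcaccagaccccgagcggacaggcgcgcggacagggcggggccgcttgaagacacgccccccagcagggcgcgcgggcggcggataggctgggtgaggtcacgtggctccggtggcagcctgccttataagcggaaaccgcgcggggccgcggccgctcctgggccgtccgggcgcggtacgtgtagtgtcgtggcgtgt

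Over the whole 300-base windows and both strands, TCACNCCAC was present in Hmgcs1 alone, starting 137 bases before the start site, and in 1.24% of the 32851 mouse promoters in the table. The looser TCACNNCA, which overlaps the first motif in Hmgcs1, was present in Hmgcs1 and, 88 bases before the start, in Cyp51, against 13.8% of all promoters. CCAAT was found in all 5 windows against 37.4% of all promoters, and the GC box GGGCGG, not capitalised, in all 5 against 35.7%. These are matches of letters in a short window, and no binding was measured here.

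Exon totals ran from 45617992 to 60214521 counts per library in CGR8, 17540823 to 22873893 in the time course, 19740778 to 26672402 in the sorted cells and 12236493 to 26369773 in the wtSRCAP and cdSRCAP cells. The 7 members had 36 to 6364 exon counts per library. All 10 ES cell markers were detected in every group, with summed levels of 1910 to 5250 CPM. CPM are exon counts divided by the depth of the library after TMM scaling. Summed markers alone, here and below, were divided by the exon total without that scaling. The summed markers of endoderm, mesoderm, neural, trophoblast and fibroblast cells stayed between 0.602 and 35.2 CPM. The share of mitochondrially encoded counts was 0.5285% in SYAT IAA 6 h replicate 2, below the 1.798% to 2.444% of the rest of the time course, and 0.2154% in wtSRCAP IAA replicate 1, which was also the shallowest library. In these bulk samples fewer cells of a type and less RNA per cell cannot be told apart. The methods call the replicates biological duplicates, and with 2 libraries a group the tests measure the spread between those pairs.

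Per length of exon (RPKM, computed from the counts with the annotated exon length), Hmgcs1 was the highest member in untreated SYAT cells and Insig1 in untreated CGR8 cells. In SYAT unt, Hmgcs1 stood at 51.3 ± 16.0 RPKM (SD, n = 2), followed by Insig1 at 33.0 ± 10.1, Cyp51 at 26.3 ± 7.94 and Sqle at 26.1 ± 4.92. Fdft1 followed at 15 ± 4.65, then Lss at 7.26 ± 1.68 and Idi1 at 6.99 ± 1.88. The ranges of Hmgcs1 and Insig1 overlapped narrowly there, and those of Insig1, Cyp51 and Sqle overlapped, as did those of Lss and Idi1. In CGR8 NT the order was Insig1 (30.5 ± 1.56 RPKM), Hmgcs1 (24.1 ± 2.4), Sqle (16.6 ± 0.892), Cyp51 (16.5 ± 0.178), Fdft1 (15.6 ± 2.0), Lss (7.14 ± 0.104) and Idi1 (5.46 ± 0.745). Sqle, Cyp51 and Fdft1 did not separate in CGR8 NT, whereas Insig1 and Hmgcs1 did. Idi1 or Lss held the lowest place in all 15 groups.

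**Figure D1:**
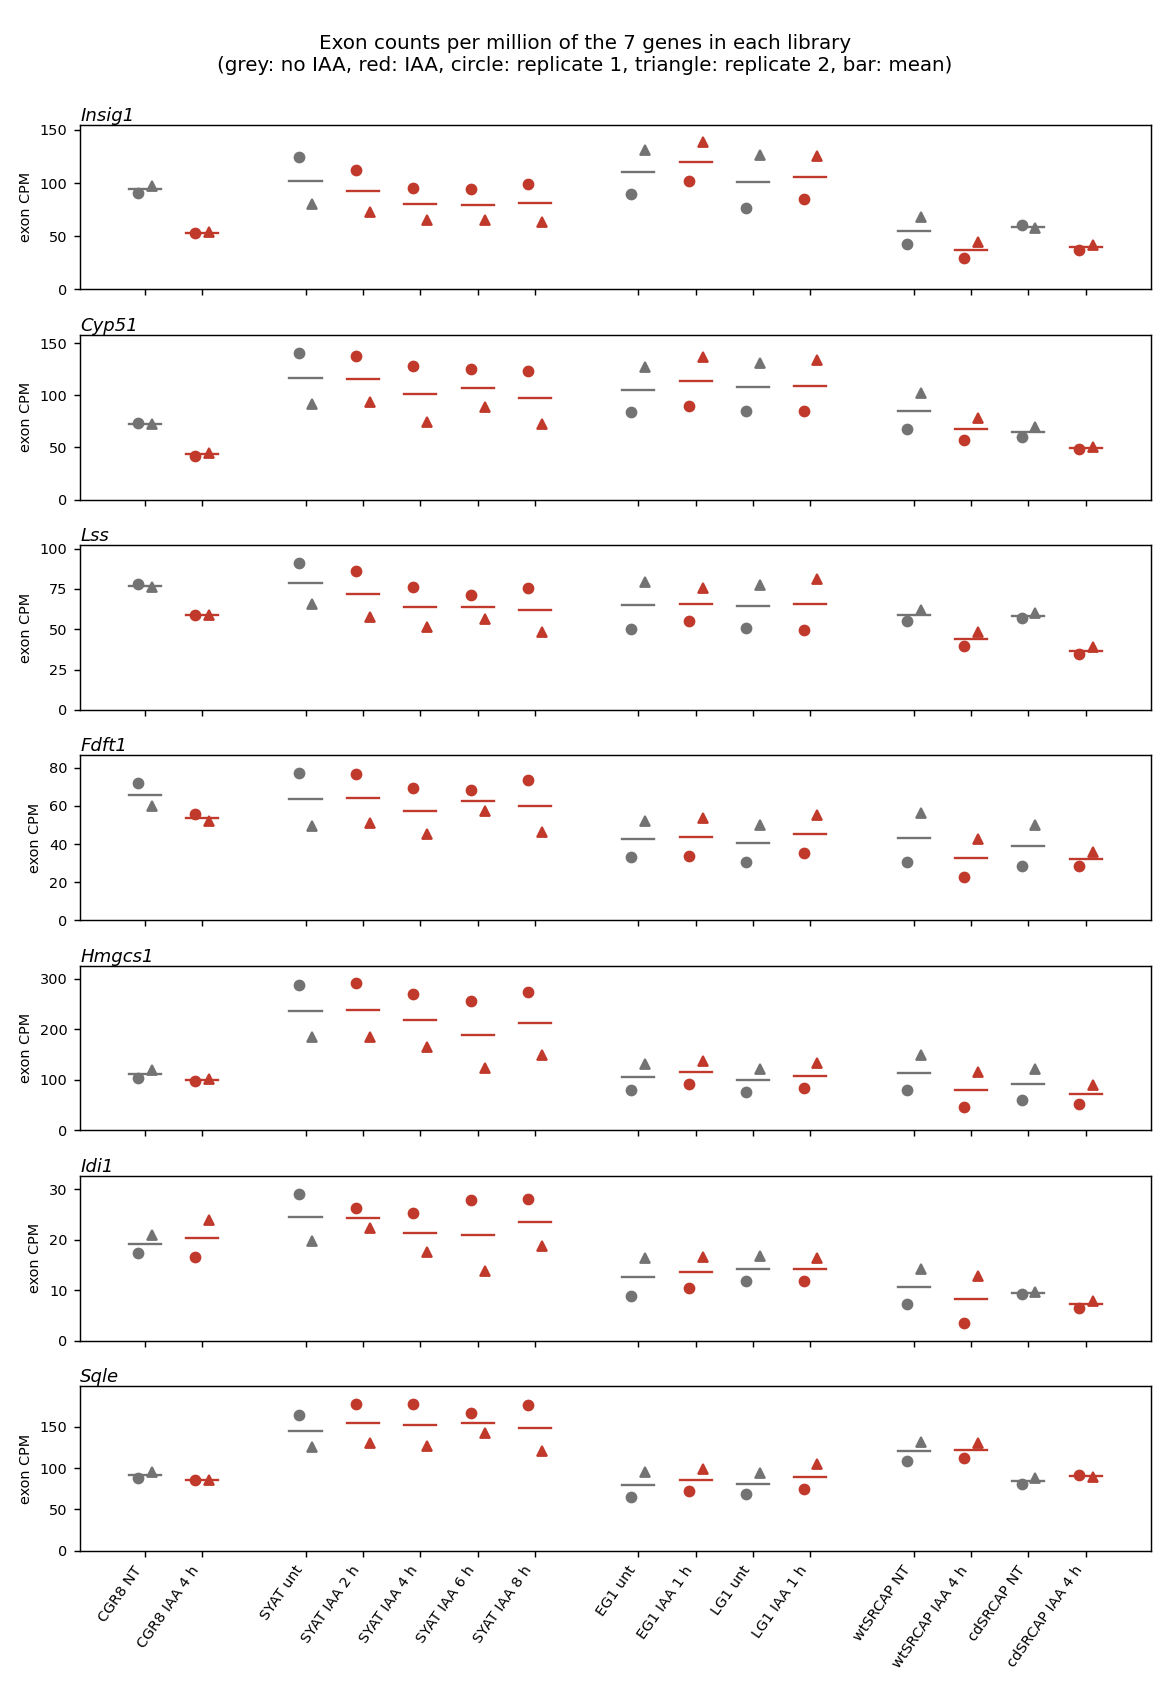
Exon CPM (y axis, linear, from 0) of the 7 genes in each of the 30 libraries, by group (x axis). Points are libraries (circle, replicate 1 and triangle, replicate 2), bars are means of the 2 libraries, grey is without IAA and red with IAA. Insig1 in CGR8 sits at 90.8 and 97.6 CPM without IAA and at 53.3 and 53.7 CPM with it, and in the time course replicate 1 lies above replicate 2 for every gene at every time.

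The first comparison asked what IAA itself did to these genes in parental CGR8 cells, which carry no degron. Insig1 and Cyp51 were the members furthest below the control. Insig1, the feedback regulator, had 90.8 and 97.6 CPM in the NT libraries against 53.3 and 53.7 CPM after IAA, and Cyp51, the lanosterol demethylase, had 73.3 and 72.1 against 42.3 and 44.3. Lss, the lanosterol synthase, had 77.8 and 76.2 CPM against 58.8 and 58.9. In each of these 3 genes both IAA libraries were below both NT libraries by more than the libraries of a group differed.

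The log2 fold change of Insig1 was -0.82 (SE 0.13, 95% interval -1.12 to -0.51), with an unadjusted p of 0.000209 and an adjusted p of 0.385 in edgeR's quasi-likelihood test. That of Cyp51 was -0.75 (SE 0.13, interval -1.05 to -0.44, p 0.0004, adjusted p 0.54), and that of Lss -0.39 (SE 0.13, interval -0.69 to -0.09, p 0.0165, adjusted p 0.54). No member met the threshold for a call, an absolute log2 fold change over 0.5 and an adjusted p under 0.05 over all genes tested. In that test 2 of 20250 genes were called (0.00988%). At an unadjusted p under 0.05, 3 of 7 members were lower and none higher, against 4.12% of all genes lower. The call depended on the test. DESeq2 called Insig1 (log2 fold change -0.73, adjusted p 6.86e-05) and Cyp51 (-0.66, adjusted p 0.00104) lower, where 0.127% of the genes it tested were called lower. Without the low-count filter edgeR called 110 of 30751 genes lower and 276 higher. It also called both members lower, with adjusted p of 0.000192 for Insig1 and 0.00155 for Cyp51. So did edgeR without NT replicate 1, where 38 genes of 21935 were called lower and 123 higher, and without NT replicate 2, where 890 of 21680 were called lower and 1471 higher. Without either IAA library no member was called, and 6 genes lower and 28 higher (without replicate 1) or 3 lower and 0 higher (without replicate 2) were.

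The earlier enzymes moved less in CGR8. Fdft1 had 72.0 and 60.0 CPM in NT against 55.6 and 51.9 after IAA, a log2 fold change of -0.3 (SE 0.15, p 0.0773, adjusted p 0.577). Hmgcs1 had 102.8 and 118.5 CPM against 98.6 and 101.2 (log2 fold change -0.15, SE 0.14, interval -0.46 to 0.16). Sqle, the squalene epoxidase that acts directly before Lss, had 88.6 and 95.6 CPM against 85.7 and 85.7, a log2 fold change of -0.1 with an interval of -0.4 to 0.19. Idi1, the least abundant member, had 17.3 and 21.0 CPM against 16.6 and 24.0 (log2 fold change 0.09, SE 0.21), and its sign depended on which library was left out. Both IAA libraries were below both NT libraries for 6 of 7 members, all but Idi1, where 20.6% of all genes showed that order. The mitochondrial share was 0.5754% and 1.059% in the NT libraries and 1.08% and 2.007% in the IAA libraries. The summed ES cell markers were at 4140 to 4530 CPM in NT and 4950 to 4980 CPM after IAA. Of the 10 markers, 6 had a log2 fold change above 0 and 4 below, with a median of 0.09. The values ran from -0.26 (Pou5f1) to 0.63 (Nanog). Nanog and Tdgf1 were higher at an unadjusted p under 0.05, as were 1020 of 20250 genes. The part of the mitochondrial share and of these markers in the result was not tested.

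**Figure D2:**
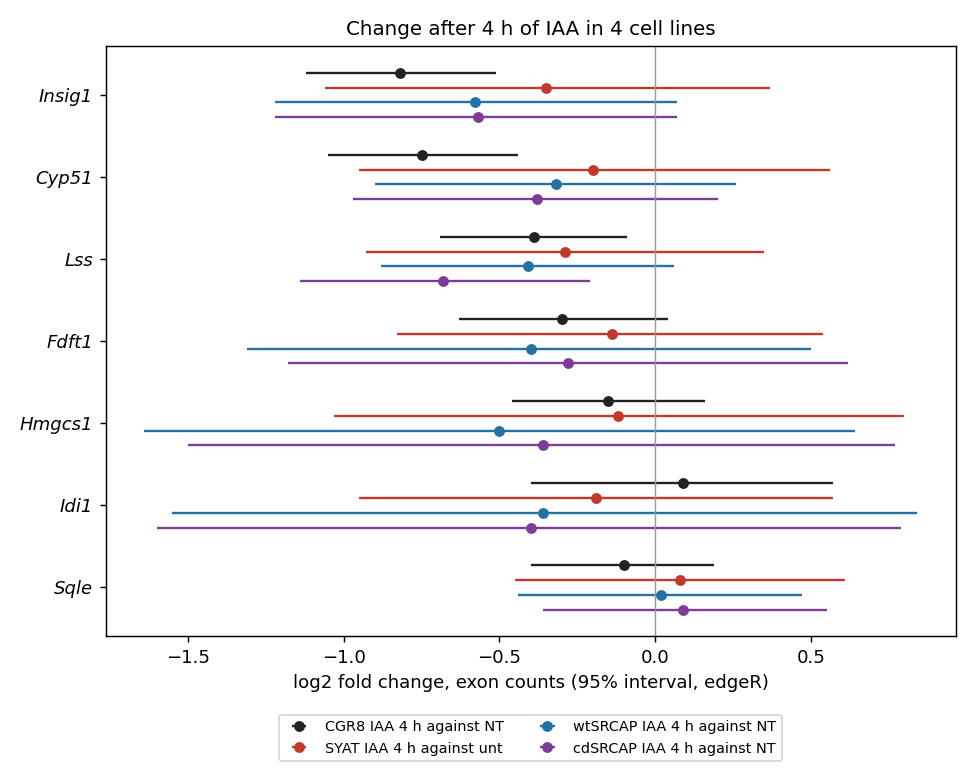
Log2 fold change of exon counts after 4 h of IAA (x axis, points with 95% intervals from edgeR) for the 7 genes (y axis) in CGR8, SYAT, wtSRCAP and cdSRCAP cells, each against its own control. The intervals of Insig1 and Cyp51 in CGR8 end at -0.51 and -0.44, that of Lss in cdSRCAP ends at -0.21, and the Sqle points lie between -0.1 and 0.09.

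The time course asked how the genes moved once SRCAP was degraded. At 4 and 8 h Insig1 and Lss had the lowest log2 fold changes of the members, smaller in size than the difference between the 2 replicates. Insig1 had 124.3 and 80.0 CPM in SYAT unt, 112.7 and 72.6 at 2 h, 95.8 and 65.0 at 4 h, 94.6 and 65.0 at 6 h and 99.0 and 63.4 at 8 h. In every pair the higher value was replicate 1, and the replicate 1 libraries after IAA stayed above replicate 2 of the control. The log2 fold change of Insig1 was -0.14, -0.35, -0.36 and -0.33 at the 4 times, each with an SE of 0.32.

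Lss had 91.2 and 65.6 CPM in unt, 86.1 and 57.8 at 2 h, 76.4 and 51.7 at 4 h, 71.0 and 56.1 at 6 h and 75.5 and 48.6 at 8 h. Its log2 fold change was -0.12, -0.29, -0.3 and -0.34 at these times (SE 0.29). Cyp51 had 141.0 and 91.4 CPM in unt, 128.2 and 74.7 at 4 h and 123.2 and 72.6 at 8 h. Its log2 fold change was -0.2 at 4 h and -0.25 at 8 h (SE 0.34). Neither gene separated from its control at any time. Sqle, by contrast, had 163.8 and 125.2 CPM in unt and 177.4 and 127.4 at 4 h, a log2 fold change of 0.08 with an interval of -0.45 to 0.61.

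Hmgcs1 had 287.6 and 183.9 CPM in unt, 291.0 and 183.8 at 2 h, 270.4 and 164.5 at 4 h, 256.1 and 122.9 at 6 h and 274.3 and 149.2 at 8 h. Its lowest value was in the 6 h library with the low mitochondrial share, and its log2 fold change there was -0.31 (SE 0.41). For Fdft1 the log2 fold changes ran from -0.14 to 0.01 and for Idi1 from -0.22 to 0.0.

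No member was called at 2, 4, 6 or 8 h by edgeR or by DESeq2. The shares of all genes called by edgeR were 0% at 2 h, 0% at 4 h, 0.0677% at 6 h and 0.00521% at 8 h. Of 35880 genes, DESeq2 called 6 lower and 2 higher at 2 h and 95 lower and 28 higher at 4 h. It called 351 lower and 216 higher at 6 h, and 288 lower and 90 higher at 8 h. No member came under an unadjusted p of 0.05 in edgeR either, against 3.92%, 9.09%, 16.1% and 13.6% of all genes at the 4 times. A joint test of any difference among the 5 conditions gave unadjusted p of 0.727 to 0.992 for the members, with 0% of all genes at an adjusted p under 0.05 and 7.63% at an unadjusted p under 0.05. The 4 comparisons share the unt libraries. All 7 members were higher in replicate 1 in each of the 5 conditions, by a median of 0.49 to 0.64 on the log2 scale. This exceeded the size of every log2 fold change of a member in the time course. The offset had the same direction in all 5 conditions, and the test without a replicate block counts it as spread. Insig1 and Lss were lower at each IAA time than in the unt library of the same number, whereas Sqle at 4 h was higher. Nothing in the labels ties libraries of the same number. No member had both IAA libraries below both controls at any time, where 21.0% to 24.1% of all genes did.

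In sorted G1 cells 1 h of IAA left the members close to their controls. Insig1 had 90.2 and 131.6 CPM in EG1 unt against 101.8 and 138.4 in EG1 IAA, and 76.3 and 126.3 in LG1 unt against 84.9 and 125.7 in LG1 IAA. The replicates of each group lay further apart than the groups. All 7 members were higher in replicate 2 in all 4 groups, with a median log2 ratio of replicate 1 to replicate 2 from -0.66 to -0.58, the opposite order to the time course. The share of counts in Malat1 and Neat1, long nuclear RNAs, was 0.7252% to 0.9764% in the replicate 1 libraries and 0.3846% to 0.4617% in the replicate 2 libraries. Its part in the difference was not tested.

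The log2 fold changes after IAA ran from 0.01 to 0.13 in EG1 and from -0.02 to 0.17 in LG1, with SEs of 0.27 to 0.35. LG1 against EG1 gave values of -0.13 to 0.19 in unt and -0.19 to 0.07 in IAA. No member was called or came under an unadjusted p of 0.05 in any of them, also with the wider limit of an absolute log2 fold change over 0.25 that the study used for sorted cells. The shares of all genes at an unadjusted p under 0.05 were low here too, 1.22% for IAA in EG1, 1.02% for IAA in LG1, 1.44% and 2.31% for LG1 against EG1 without and with IAA, and 0% were called in each. The difference between the IAA effects in LG1 and EG1 gave unadjusted p of 0.802 or more for every member, against 0.699% of all genes under 0.05 and 0% called. The intervals were wide. For Insig1 that difference was -0.06 with an interval of -1.08 to 0.96.

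The cells with wtSRCAP or cdSRCAP asked whether the catalytic activity of SRCAP was needed. After IAA Insig1 had the lowest log2 fold change of the members in wtSRCAP, and Lss followed by Insig1 in cdSRCAP, while Sqle was near 0 in both. Insig1 had 42.7 and 68.0 CPM in wtSRCAP NT against 29.3 and 44.9 after IAA, and 60.4 and 57.6 in cdSRCAP NT against 37.0 and 42.2 after IAA. Lss had 55.4 and 61.9 against 39.7 and 48.3 in wtSRCAP, and 56.9 and 60.1 against 34.4 and 38.9 in cdSRCAP. The groups of Lss did not overlap in either clone, while those of Insig1 overlapped in wtSRCAP and not in cdSRCAP. In all, 1 member in wtSRCAP and 4 in cdSRCAP (Lss, Insig1, Cyp51 and Idi1) had both IAA libraries below both controls, where 19.5% and 19.0% of all genes did. Sqle was the opposite in cdSRCAP, with both IAA libraries above both controls, as 18.7% of all genes had.

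In cdSRCAP the log2 fold change of Lss was -0.68 (SE 0.21, interval -1.14 to -0.21, p 0.00961, adjusted p 0.744), and in wtSRCAP -0.41 (SE 0.21, interval -0.88 to 0.06, p 0.0774). For Insig1 the values were -0.57 in cdSRCAP and -0.58 in wtSRCAP, each with an SE of 0.29 and an unadjusted p of 0.0738. Cyp51 had 67.3 and 101.9 CPM in wtSRCAP NT against 56.9 and 78.6 after IAA (log2 fold change -0.32, SE 0.26), and 60.2 and 69.5 against 48.7 and 50.8 in cdSRCAP (-0.38, SE 0.26). Sqle had 108.4 and 132.0 against 112.5 and 130.5 in wtSRCAP (0.02, SE 0.2), and 81.2 and 88.4 against 92.1 and 88.9 in cdSRCAP (0.09, SE 0.2).

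Hmgcs1 had replicates far apart here, with 79.1 and 149.6 CPM in wtSRCAP NT, 46.1 and 115.1 in wtSRCAP IAA, 60.6 and 121.7 in cdSRCAP NT and 51.4 and 90.6 in cdSRCAP IAA. Its log2 fold changes of -0.5 and -0.36 had SEs of 0.51 and 0.5. Fdft1 and Idi1 gave values of -0.4 and -0.36 in wtSRCAP and of -0.28 and -0.4 in cdSRCAP, none larger in size than its SE.

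Without a replicate block no member was called in either clone by edgeR or by DESeq2. In that setting edgeR called 0.00523% of all genes in wtSRCAP and 0% in cdSRCAP. Of 33130 genes, DESeq2 called 4 lower and 10 higher in wtSRCAP, and 5 lower and 2 higher in cdSRCAP. At an unadjusted p under 0.05, 0 of 7 members were lower in wtSRCAP, where 4.48% of all genes were, and 1 of 7 (Lss) in cdSRCAP, where 3.99% were. Between the clones, Sqle was lower in cdSRCAP than in wtSRCAP without IAA, at -0.5 (SE 0.2, interval -0.96 to -0.05, p 0.0341, adjusted p 1.0), the only member at an unadjusted p under 0.05 where 1.32% of all genes were lower and 0% were called. With IAA the value for Sqle was -0.43 (p 0.0641), and no member passed that limit where 2.19% of all genes were lower and 0.00523% were called. The 2 clones are 1 line each, so the SRCAP form and the clone cannot be told apart in these values. A difference in the IAA effect between the clones was not detected by the interaction test, with unadjusted p of 0.393 or more for all 7 members against 0.785% of all genes under 0.05 and 0% called. The intervals of that difference were -0.9 to 0.9 for Insig1 and -0.92 to 0.4 for Lss, so a sizeable difference in either direction could not be seen at this replication. wtSRCAP IAA replicate 1, the library of least depth and lowest mitochondrial share, held the lowest Insig1, Hmgcs1, Fdft1 and Idi1 of the table. Without that library the log2 fold change after IAA in wtSRCAP was -0.28 for Insig1, -0.26 for Lss and -0.08 for Cyp51. The median of the members was then 0.0 in place of -0.4. That fit set IAA replicate 2 against both NT libraries, and all 7 members were higher in NT replicate 2 than in NT replicate 1. Beside NT replicate 2 alone, IAA replicate 2 had Insig1 at 44.9 against 68.0 CPM. Lss was at 48.3 against 61.9 and Cyp51 at 78.6 against 101.9. Nothing in the labels ties libraries of the same number.

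Because replicates differed for all members together, the members were also set against Sqle within each library. Sqle was taken after its values had been seen, so the ratios are a description. The ratio of Insig1 to Sqle (CPM over CPM) was 1.02 and 1.02 in CGR8 NT and 0.622 and 0.626 after IAA. In SYAT it was 0.759 and 0.639 in unt, 0.633 and 0.555 at 2 h, 0.54 and 0.51 at 4 h, 0.568 and 0.454 at 6 h and 0.561 and 0.525 at 8 h. From 2 h on, all 8 IAA libraries were below both controls. In wtSRCAP the ratio was 0.394 and 0.515 in NT and 0.26 and 0.344 after IAA, and in cdSRCAP 0.744 and 0.652 against 0.402 and 0.475.

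The ratio of Lss to Sqle was 0.878 and 0.797 in CGR8 NT against 0.686 and 0.687 after IAA, 0.556 and 0.523 in SYAT unt against 0.431 and 0.406 at 4 h, 0.511 and 0.469 against 0.353 and 0.37 in wtSRCAP, and 0.701 and 0.68 against 0.373 and 0.438 in cdSRCAP. The ratio of Cyp51 to Sqle was 0.826 and 0.754 in CGR8 NT against 0.493 and 0.517 after IAA. It was 0.86 and 0.73 in SYAT unt against 0.722 and 0.586 at 4 h, 0.621 and 0.773 against 0.506 and 0.602 in wtSRCAP, and 0.741 and 0.787 against 0.529 and 0.571 in cdSRCAP. Insig1, Lss and Cyp51 were below in both IAA libraries in all 4 comparisons at 4 h, whereas Idi1 was in 2, Fdft1 in 1 and Hmgcs1 in none. The same pattern in all 4 comparisons was seen for 142 of 17682 genes, or 0.803%. After 1 h of IAA in sorted cells the ratio of Insig1 to Sqle was close to its control, with 1.39 and 1.38 in EG1 unt against 1.41 and 1.4 after IAA, and 1.11 and 1.34 in LG1 unt against 1.13 and 1.2.

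**Figure D3:**
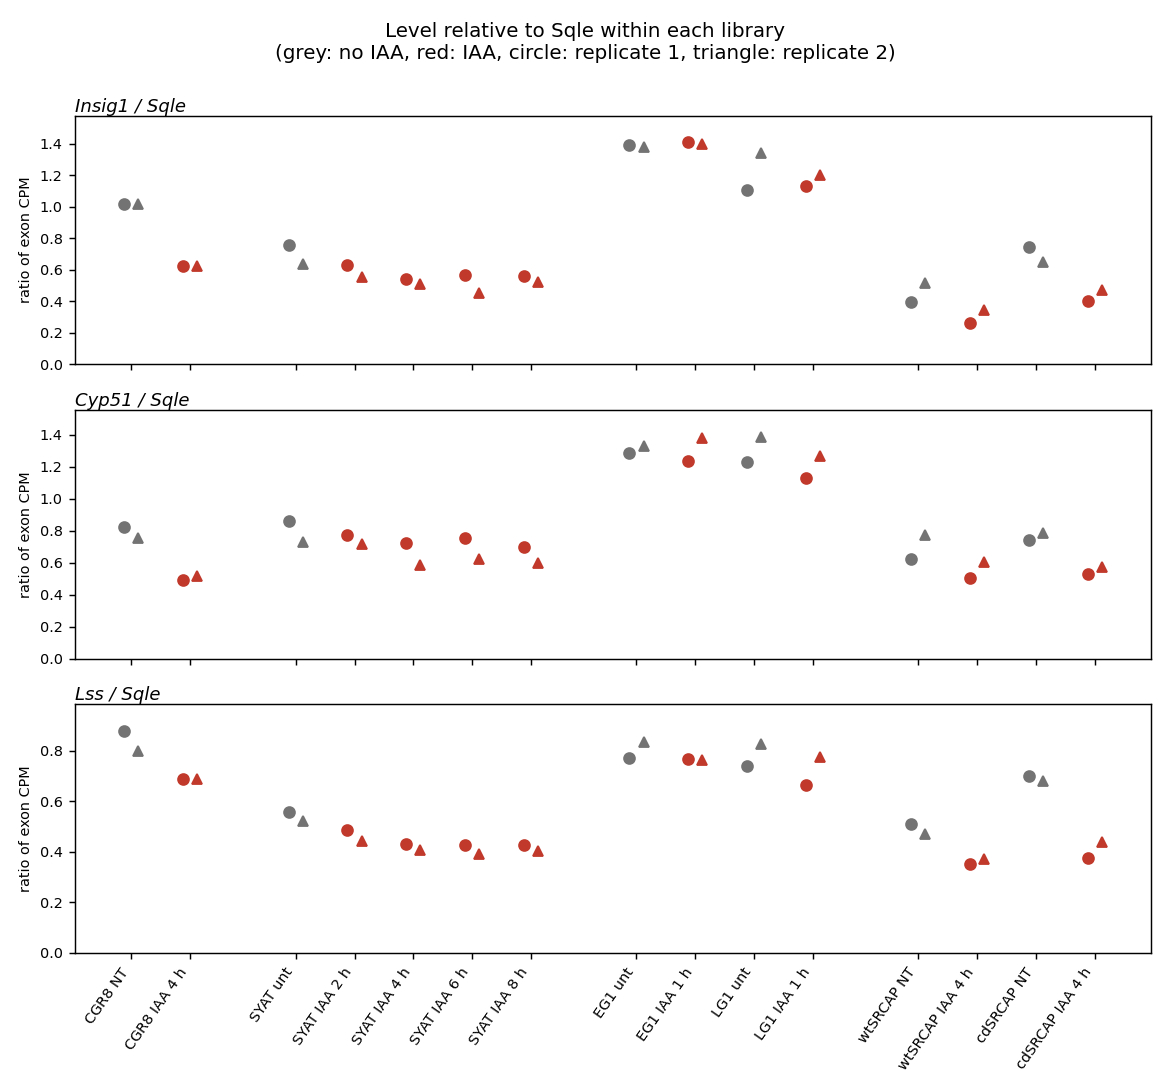
Exon CPM of Insig1, Cyp51 and Lss divided by that of Sqle in the same library (y axis, linear, from 0), by group (x axis). Circles are replicate 1, triangles replicate 2, grey is without IAA and red with IAA. The Insig1 ratio goes from 1.02 in both CGR8 NT libraries to 0.622 and 0.626 after IAA and stays between 1.11 and 1.41 in the sorted G1 cells.

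Intron counts, which come mostly from RNA not yet spliced, were read beside the exon counts. In the time course and the EG1 libraries the intron columns also held exonic reads. Of genes with a single exon, 53.1% and 44.7% had intron counts there, against 0.0537% in CGR8, 0.0959% in LG1 and 0.0935% in the wtSRCAP and cdSRCAP cells. Introns are therefore not described for the time course and EG1. Member values in LG1 introns are not reported here either. Introns are described for CGR8, wtSRCAP and cdSRCAP. Hmgcs1 and Lss were listed at 0 intron counts in these, so 5 members remained.

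In CGR8 Insig1 had 246 and 483 intron counts in NT and 173 and 284 after IAA, and its log2 fold change was -0.97 (SE 0.23, interval -1.49 to -0.46, p 0.00217, adjusted p 0.657), beside -0.82 in exons. It was the only member at an unadjusted p under 0.05, where 2.68% of all genes were lower. Cyp51 had 164 and 366 intron counts in NT and 286 and 405 after IAA, a log2 fold change of 0.11 (SE 0.22, interval -0.4 to 0.62) beside -0.75 in exons. Sqle was at 0.0 (SE 0.23), Fdft1 at -0.38 (p 0.0563) and Idi1 at -0.59 (SE 0.4).

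In cdSRCAP Insig1 had 137 and 114 intron counts in NT and 65 and 52 after IAA, a log2 fold change of -1.16 (SE 0.34, interval -1.93 to -0.39, p 0.00764, adjusted p 0.225). Idi1 had 34 and 54 against 21 and 22, or -1.06 (SE 0.46, p 0.0472, adjusted p 0.432). These 2 of 5 members were lower at an unadjusted p under 0.05, where 7.49% of all genes were. In wtSRCAP Insig1 had 88 and 88 intron counts against 31 and 79, or -0.41 (SE 0.35), and Idi1 was at -0.04 (SE 0.45). The interaction test gave -0.75 for Insig1 (interval -1.84 to 0.34, p 0.156) and -1.02 for Idi1 (interval -2.47 to 0.43, p 0.146). In cdSRCAP against wtSRCAP with IAA, Idi1 introns were at -1.33 (SE 0.47, interval -2.38 to -0.27, p 0.019, adjusted p 0.387). Its wtSRCAP IAA libraries had 18 and 57 intron counts. No other member came under an unadjusted p of 0.05 in introns between the clones. The share of all genes under that p in introns between the clones is not reported here. No member was called in introns in any comparison. In CGR8 1 gene was called lower and 2 higher in introns, of 13634 tested by edgeR.

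The other genes of the pathway were read as lists, 16 further genes of synthesis, 11 of uptake and transport, 6 of SREBP control and 4 of sterol efflux and its LXR regulators. They were read in the main test alone (edgeR with the low-count filter and no replicate block). None of them was called in any comparison in that test, and their results under the alternatives are not reported here. In CGR8 after IAA, 7 of 16 synthesis genes were lower at an unadjusted p under 0.05 and none higher, among them Pmvk, Fdps, Mvk, Mvd and Dhcr7, where 4.12% of all genes were lower at that p. The median log2 fold change of the list was -0.33, beside -0.3 for the 7 members and 0.0 for all genes, and it ran from -0.81 (Pmvk, phosphomevalonate kinase) to 0.46 (Ggps1). Of the uptake genes 3 of 11 were lower at that p, among them Vldlr and Lrp8, beside the same 4.12%. Vldlr, a lipoprotein receptor, was at -2.05 (SE 0.48, p 0.00229) from levels of 1.96 and 1.99 CPM. Of the 6 SREBP genes 2 were lower at that p, Srebf1 (-0.55) and Srebf2 (-0.45), which encode the SREBP factors themselves, and Insig2, the relative of Insig1, was at 0.31 (p 0.149).

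In SYAT cells Insig2 and Lipa were the lowest of their lists at each time. Insig2 had 17.0 and 17.0 CPM in unt, 11 and 11.8 at 2 h, 11.2 and 8.64 at 4 h, 9.23 and 8.35 at 6 h and 8.96 and 7.77 at 8 h. All 8 IAA libraries were below both controls, an order that 21.0% to 24.1% of all genes showed at a single time, with log2 fold changes of -0.57, -0.78, -0.95 and -1.02 (SE 0.2) and adjusted p of 1.0, 0.222, 0.0744 and 0.0767. Lipa, the lysosomal acid lipase that frees cholesterol from its esters, had 11.5 and 9.62 CPM in unt and 3.67 and 2.92 at 8 h. Its log2 fold change was -0.38 at 2 h, -1.09 at 4 h, -1.69 at 6 h and -1.68 at 8 h, with an adjusted p of 0.0679 at 6 h. Neither gene met the threshold for a call. Of the efflux genes Nr1h3, which encodes the sterol sensor LXR alpha, was lower at an unadjusted p under 0.05 at 8 h, as were 1621 of 19205 genes. It had 1.62 and 0.578 CPM in unt against 0.343 and 0.329 (-1.68, SE 0.56, p 0.0135, adjusted p 0.23). The medians of the synthesis list were -0.1, -0.23, -0.11 and -0.23, beside 0.0 to 0.03 for all genes. Of its 16 genes 1 came under an unadjusted p of 0.05, Ggps1 at 6 h (-0.81, p 0.0123). The shares of all genes under that p were 3.92%, 9.09%, 16.1% and 13.6% at the 4 times. In the sorted cells no listed gene came under that p after 1 h of IAA, against 1.22% of all genes in EG1 and 1.02% in LG1.

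Insig2 and Lipa were also below the control after IAA in both clones with added SRCAP. Insig2 had 18.9 and 19.1 CPM in wtSRCAP NT against 10.0 and 10.6 after IAA (log2 fold change -0.88, SE 0.23, p 0.00395), and 16.3 and 16.5 against 9.89 and 9.37 in cdSRCAP (-0.77, SE 0.23, p 0.00833). Lipa was at -1.01 (p 0.0168) in wtSRCAP and -1.15 (p 0.00755) in cdSRCAP, while in CGR8 it had 11 and 16.3 CPM in NT against 14.0 and 17.3 after IAA. CGR8 and the degron lines are in separate tables, and the difference between them was not tested. Vldlr was at -2.17 in wtSRCAP and -1.89 in cdSRCAP, from 1.54 to 3.56 CPM in NT. Of the 16 synthesis genes 3 were lower at an unadjusted p under 0.05 in wtSRCAP (Dhcr7, Sc5d and Hsd17b7, the first 2 lowest in wtSRCAP IAA replicate 1) and 2 in cdSRCAP (Mvd and Mvk), where 4.48% and 3.99% of all genes were, with list medians of -0.24 and -0.35.

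Between the clones, the cholesterol exporters Abca1 and Abcg1 were higher in cdSRCAP. Abca1 had 109 and 155 CPM in wtSRCAP NT against 202 and 264 in cdSRCAP NT (log2 fold change 0.82, SE 0.24, p 0.00685, adjusted p 1.0), and 163 and 172 against 242 and 263 with IAA (0.59, p 0.0334). Abcg1 was at 0.63 (p 0.0115) without IAA and 0.72 (p 0.00593) with it. The groups of Abca1 did not overlap in either condition, an order that 15.7% of all genes showed without IAA and 19.1% with it. Neither gene was called. Without IAA 478 of 19111 genes were higher at an unadjusted p under 0.05, and with IAA 543. The log2 fold changes of the ES cell markers lay above 0 too, 10 of 10 without IAA (median 0.49, summed level 2970 to 3450 CPM in wtSRCAP and 3720 to 4840 in cdSRCAP) and 9 of 10 with it (median 0.44, 3170 to 3780 and 4300 to 5250 CPM), and their part in the result was not tested.

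**Figure D4:**
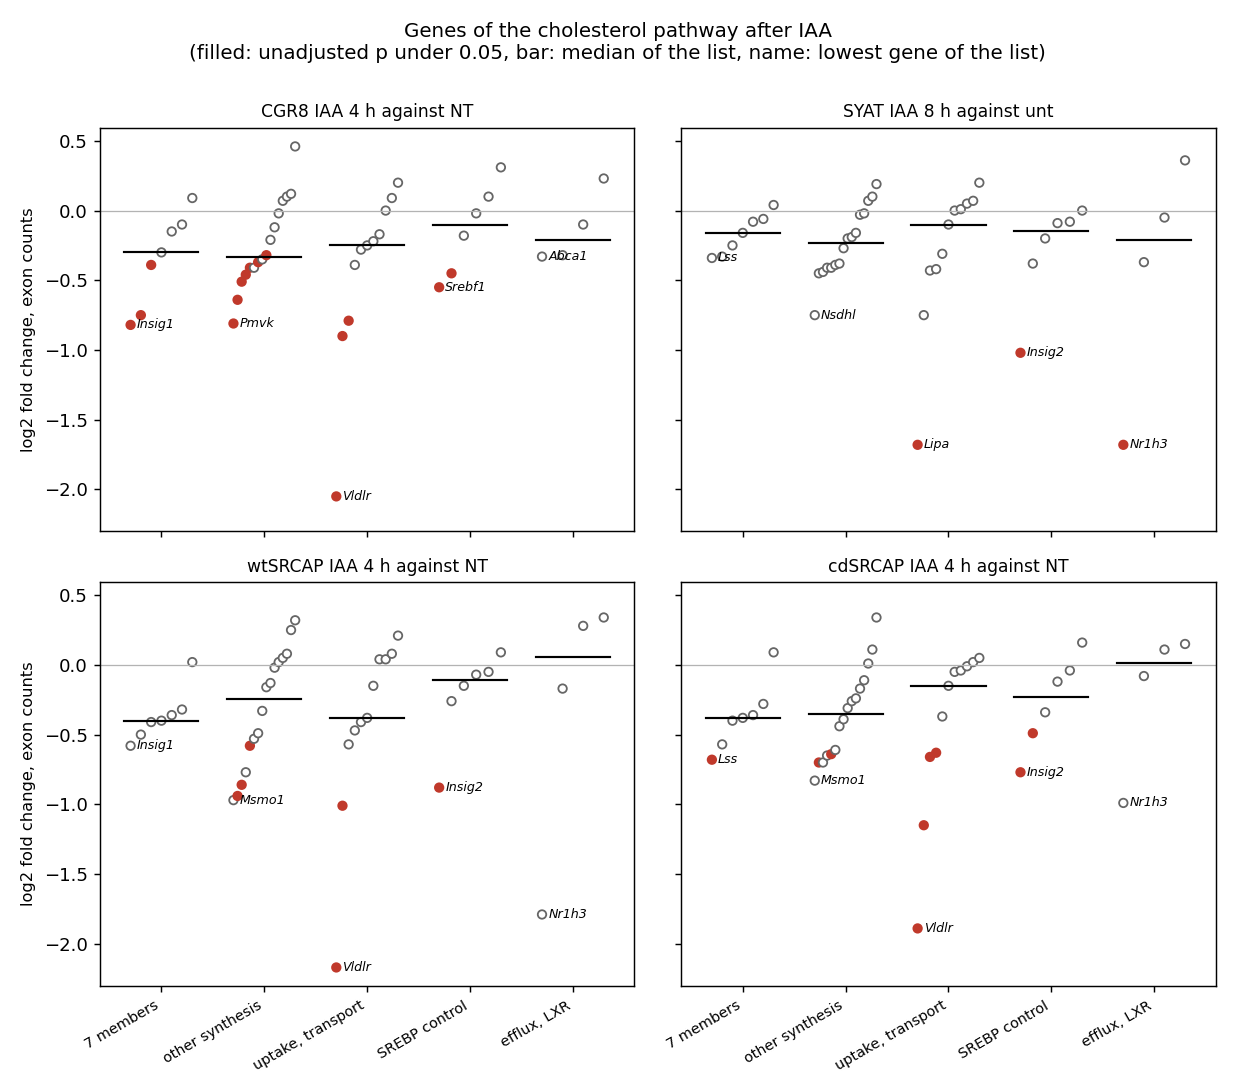
Log2 fold change of exon counts (y axis) for the 7 genes and the 4 other lists (x axis) after IAA in CGR8 (4 h), SYAT (8 h), wtSRCAP (4 h) and cdSRCAP (4 h). Points are genes, filled where the unadjusted p was under 0.05, bars are list medians and the name is that of the lowest gene of a list. In CGR8 the synthesis median lies at -0.33 with Insig2 at 0.31, and in SYAT at 8 h Insig2 and Lipa lie at -1.02 and -1.68.

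Across the 30 libraries the members varied together. On log2 CPM centred on the mean of each table, the correlation of a member with the mean of the other members was 0.915 for Fdft1, 0.91 for Cyp51, 0.909 for Hmgcs1, 0.883 for Lss, 0.864 for Insig1, 0.799 for Idi1 and 0.708 for Sqle. Among pairs it was highest between Lss and Cyp51 (0.906) and lowest between Sqle and Insig1 (0.52). Among 8501 genes of sufficient level, the 10 most like the mean of the members included Msmo1 (0.931), Stard4 (0.921), Acat2 (0.9), Nsdhl (0.897), Ehd4 (0.884), Dhcr7 (0.856), Scd1 (0.856), Usp47 (0.85) and Acaca (0.849). Of these 10, 6 stand in the pathway lists. The median over all 8501 genes was 0.193 and that over the 31 listed pathway genes among them was 0.497. These values are a description, since the 30 libraries are pairs of replicates in shared tables, and the members differed between the replicates of a group by a median of up to -0.67 on the log2 scale.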

How the data were processed

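Nuclear RNA of 30 libraries was sequenced by the study with a directional kit and paired-end reads. Per the methods and labels, the authors mapped reads with STAR to mm10 and counted GENCODE vM25 exons and introns (gene body less exons) with featureCounts. The deposited values are raw counts per gene in 4 tables. 4 further tables with the authors' DESeq2 fold changes were not used. Of 55401 gene IDs, 55141 matched the GENCODE vM21 annotation used here for symbols (54349 with the same version).

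Counts were tested per table with edgeR 4.0.16 (R 4.3.3): filterByExpr (minimum count 10, total 15), TMM scaling, 1 term per group, quasi-likelihood F-test, Benjamini-Hochberg adjustment over all genes tested. CPM use TMM library sizes, except the summed markers, which use exon totals without TMM scaling. Alternatives were DESeq2 1.42.0, DESeq2 size factors, no filter, the 2 groups alone, a replicate block and leaving out each library. Scripts were tested on simulated data. The members and lists were chosen with earlier results of these data known. Named were all members, list genes at the ends of a list's range, and genes among the 10 of highest correlation; some list genes are not reported here. Srebf2 and Dhcr7, among others, and the ratio to Sqle were picked after their values were seen.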

Additional observations from a re-analysis of the deposited data

How the results depend on the processing

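The main test called 0 members in CGR8, and edgeR with the replicate block, DESeq2, DESeq2 with the replicate block and edgeR without the low-count filter each called 2 (Insig1 and Cyp51). Leaving out 1 library gave 0 to 2. With the replicate block edgeR also called 1 member in wtSRCAP (Hmgcs1, -0.56, adjusted p 0.0417) and 1 in cdSRCAP (Lss, adjusted p 0.0234). Over all genes that fit called 280 of 19111 lower and 332 higher in wtSRCAP, and 245 lower and 100 higher in cdSRCAP. DESeq2 with the block called 1 member in cdSRCAP (Lss), where 288 of 33130 genes were called lower and 141 higher. The block changed no other call of a member, and the cause was not tested. Replicate numbers are shared by groups but nothing in the labels ties same-numbered libraries. Their deviations correlated at 0.0736 in CGR8, -0.0359 to 0.589 in the time course, 0.372 to 0.586 in the sorted cells and 0.259 to 0.376 in the other clones. The block moved edgeR's calls over all genes from 2 lower and 0 higher to 180 lower and 320 higher in CGR8. There DESeq2 called 39 genes lower and 78 higher, and with the block 81 lower and 209 higher. Without the low-count filter edgeR called 110 lower and 276 higher in CGR8. Signs turned on leaving out 1 library for Idi1 in CGR8 (-0.2 to 0.35), Lss at 2 h (-0.45 to 0.14), Insig1 at 2 h (-0.5 to 0.21), 4 h (-0.66 to 0.0) and 8 h (-0.7 to 0.02), Sqle (-0.19 to 0.3) and Cyp51 (-0.64 to 0.15) at 4 h, and Sqle (-0.13 to 0.17) and Cyp51 (-0.59 to 0.02) in wtSRCAP. Of the member fold changes recomputed under the alternatives, 234 kept their sign and side of the threshold, 15 turned and 14 passed the adjusted p threshold that they missed in the main test, and 161 counts of members called did not move while 9 did. With 2 libraries a group and no replicate block, the main test could not see changes under about the spread between replicates.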
